A study of Mus musculus with 6 samples.

Results

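The CELF family (CUG-BP and ETR-3-like factors) is a group of RNA-binding proteins, and its 6 mouse genes, Celf1 to Celf6, were followed here in the orbitofrontal cortex. They were taken by gene name from the deposited tables, where they made up 6 of 13348 listed genes and 31 of 24676 listed transcripts. The tissue came from C57BL/6 mice aged 12 weeks, in 3 control and 3 knockdown libraries. Control mice carried a scrambled short hairpin RNA (shRNA). Knockdown mice had been injected in the orbitofrontal cortex with a lentivirus carrying an shRNA against the splice junction of circHomer1a, a circular RNA of the Homer1 gene. The labels give neither the promoter that drives the hairpin nor the route of the control, and they do not state whether each sample was a different animal. The p-values therefore reflect sample-to-sample spread only, part or all of which could be technical.

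CELF proteins bind GU-rich RNA through 3 RNA recognition motifs. In the nucleus they choose between alternative exons, often in opposition to the muscleblind proteins, and in the cytoplasm they set the decay and translation of messenger RNAs. Celf1 and Celf2 are active in many tissues, whereas Celf3 to Celf6 are found mainly in the nervous system, and mice without Celf4 have seizures.

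Levels are in FPKM, fragments scaled by feature length and library size, so that genes can be set side by side per length. Differences are knockdown minus control of log2(FPKM + 1), tested with limma across all genes with a mean of at least 1 FPKM and called at an adjusted p under 0.05. No Celf gene passed this test for knockdown against control. Of 6 members, 0 were called, against 0% of 11961 genes tested, and 0 had an unadjusted p under 0.05, against 3.57% of genes. The groups overlapped in all 6 members, whereas they did not overlap in 7.92% of tested genes. The difference was positive in 4 members and negative in 2, with a median of 0.06 beside 0.02 over all tested genes. In bulk tissue, fewer cells of a type and less RNA per cell cannot be told apart.

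Celf4, which binds the 3′ ends of many messenger RNAs in excitatory neurons, had the highest level of the family. It was at 68.7, 66.0 and 56.4 FPKM in controls 1 to 3, and at 57.0, 53.3 and 53.3 FPKM in knockdowns 1 to 3. The lowest control lay just under the highest knockdown library, so the groups overlapped. The means were 63.7 ± 6.44 and 54.5 ± 2.18 FPKM (SD, n = 3 each), a log2 difference of -0.22 (standard error 0.10, 95% interval -0.45 to 0.02, limma unadjusted p = 0.0645, adjusted p = 0.948, two-sided exact permutation p = 0.2). With 3 libraries against 3, the smallest p an exact permutation test can give is 0.1.

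Celf5, a splicing regulator of neural tissue, followed at 41.5, 35.6 and 34.4 FPKM in controls against 37.8, 41.0 and 38.1 FPKM in knockdowns. The ranges overlapped, and the log2 difference was 0.07 (95% interval -0.16 to 0.30, limma adjusted p = 0.954). Celf3, which activates exon inclusion in neuronal transcripts, was at 25.6, 25.4 and 20.7 FPKM in controls against 22.7, 19.9 and 21.7 FPKM in knockdowns. Control 3 was as low as the knockdown libraries, and the log2 difference was -0.15 (95% interval -0.40 to 0.11, limma adjusted p = 0.948).

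Celf1, which also recruits the decay machinery to GU-rich messenger RNAs, was the most variable member, with a coefficient of variation of 24.4% over the 6 libraries against 7.39% for Celf5. It was at 13.4, 5.96 and 12.0 FPKM in controls against 11.8, 13.5 and 11.9 FPKM in knockdowns. Control 2 stood apart from the other 5 libraries. The log2 difference was 0.30 with all libraries (95% interval -0.32 to 0.91, limma adjusted p = 0.948) and -0.03 without control 2. In the same control 2 library, the summed excitatory neuron markers were at 307 FPKM, within the range of the other libraries, and the summed striatal neuron markers were at their highest, 367 FPKM. Their part in the low Celf1 value was not tested.

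Celf2, which regulates splicing in nervous tissue and muscle and binds the Ptgs2 messenger RNA, was at 10.9, 9.97 and 8.81 FPKM in controls against 11.0, 11.4 and 9.65 FPKM in knockdowns. Its log2 difference was 0.10 (95% interval -0.16 to 0.36, limma adjusted p = 0.948). Celf6, whose loss in mice alters behaviour, had the lowest level of the family. It was at 3.42, 3.12 and 2.48 FPKM in controls against 3.74, 3.06 and 2.71 FPKM in knockdowns, with groups that overlapped over most of their range. The log2 difference was 0.06 (95% interval -0.27 to 0.39, limma adjusted p = 0.967). Across the 6 members, the half-width of the 95% interval ran from 0.23 for Celf5 to 0.61 for Celf1. A difference of that size reaches an unadjusted limma p of 0.05, and a call after adjustment over 11961 genes needs a larger one.

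**Figure D1:**
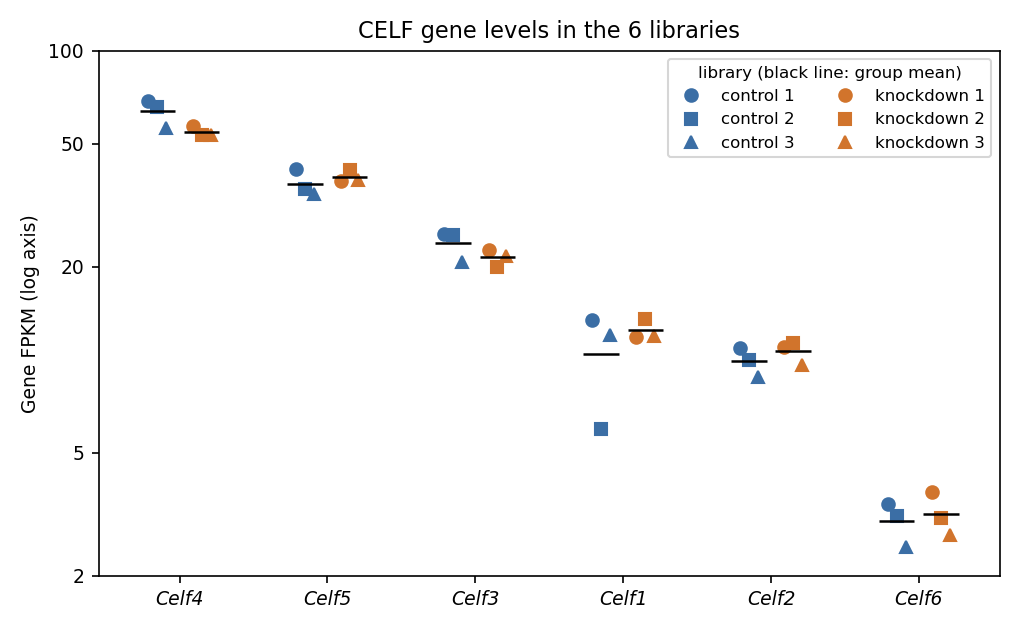
Gene level (FPKM, log axis) of the 6 Celf genes in each of 3 control and 3 knockdown libraries, with points for libraries and black lines for group means. The order from Celf4 to Celf6 is visible in both groups, and the single low Celf1 point is control 2 at 5.96 FPKM.

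The order of levels over the 6 libraries was Celf4 (mean 59.1 ± 6.60 FPKM, SD, n = 6), Celf5 (38.1 ± 2.81), Celf3 (22.7 ± 2.39), Celf1 (11.4 ± 2.79), Celf2 (10.3 ± 0.967) and Celf6 (3.09 ± 0.458). Neighbours in this order differed 1.11-fold to 3.32-fold in mean. Their ranges over the 6 libraries were separate except for Celf1 and Celf2, where Celf1 was the higher in 5 of 6 libraries. The position of Celf2 depended on the way a gene value is made. Its exons together cover 25884 bases in GENCODE M21, more than any single transcript, and the gene value divides by a length of that kind: the listed transcripts, weighted by length over those bases, gave 95.5% to 97.0% of the deposited value. By the plain sum of listed transcripts, Celf2 averaged 43.5 FPKM and ranked 3, ahead of Celf3 (21.1 FPKM) and Celf1 (12.6 FPKM).

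Shares of the summed family FPKM were taken as a description of the makeup of the family. Celf4 made up 42.0%, 45.2% and 41.9% of the summed family FPKM in controls against 39.6%, 37.5% and 38.8% in knockdowns, which did not overlap. Celf5 made up 25.4%, 24.4% and 25.5% in controls and 26.2%, 28.8% and 27.7% in knockdowns, and Celf2 6.67%, 6.83% and 6.54% against 7.61%, 7.99% and 7.02%, both without overlap. The shares of Celf1, Celf3 and Celf6 overlapped. These shares sum to a fixed total, so a lower share of Celf4 alone raises the others, and they were not tested. By level the groups overlapped in every member, and no rate of separate shares over other gene sets was taken. The summed family level was 148 ± 14.5 FPKM in controls against 141 ± 3.42 FPKM in knockdowns (SD, n = 3 each), with overlapping ranges.

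**Figure D2:**
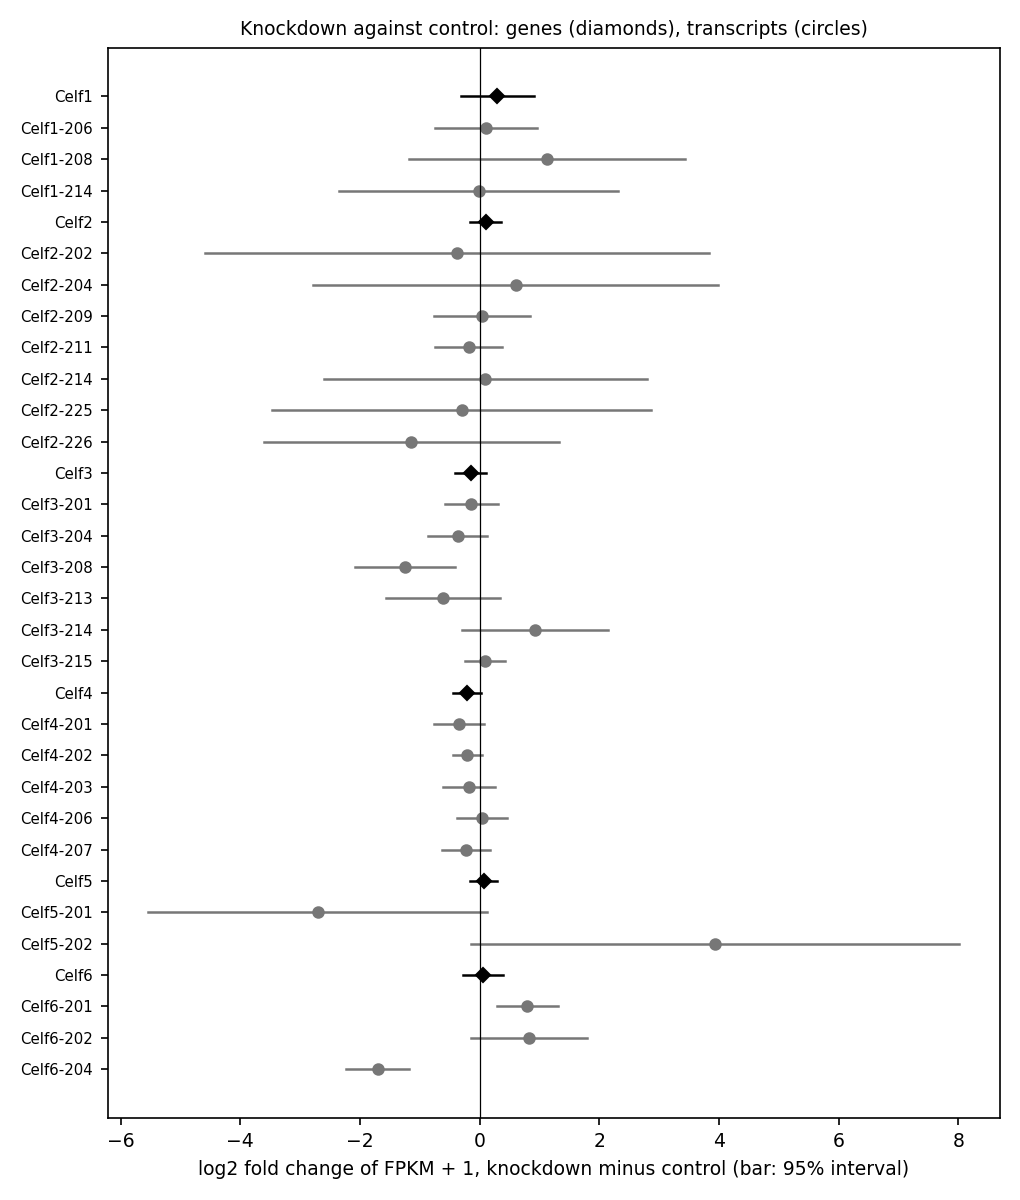
Log2 difference (knockdown minus control, log2(FPKM + 1) scale) with its 95% interval for the 6 Celf genes and their tested transcripts. All 6 gene intervals include 0, and Celf6-204 and Celf5-201 lie farthest to the left.

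At the level of transcripts, groups without overlap were found in forms of Celf6 and Celf3 only. The deposited table listed 31 Celf transcripts, of which 26 reached a mean of 1 FPKM and were tested; Celf1-201, Celf1-203, Celf2-207, Celf5-203 and Celf5-208 were too low. By limma, 0 of the 26 were called, against 0.103% of 18476 transcripts, and 3 had an unadjusted p under 0.05, against 3.81%. In 4 the groups did not overlap, against 8.8% of transcripts tested: Celf6-201 was higher in all knockdown libraries (4.57% of transcripts), and Celf6-204, Celf3-204 and Celf3-208 were lower (4.22%). Celf6-204 and Celf3-208 passed the filter through their control values, and forms of the same gene are not independent, so these counts are a description. Transcript usage, the level of a transcript relative to the other transcripts of its gene, was tested with limma's diffSplice (Simes p per gene). It was called in 1 of 6 members, Celf6, against 1.15% of 4091 genes. Unadjusted usage p-values under 0.05 were found in 11.1% of all genes, more than the level tests gave.

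Celf6 was the member whose transcript usage differed between groups: a form with a downstream start, Celf6-204, held over 50% of the gene in every control library and about 1% or less in every knockdown library. The gene (ENSMUSG00000032297.11, GRCm38 chr9:59577917-59607292, plus strand) had 3 listed transcripts, whose coordinates in the table equal those of GENCODE M21. Celf6-201 starts at 59578337 and has 12 exons and 460 codons. Celf6-204 starts 10951 bases downstream, at 59589288, within an intron of Celf6-201, and has 11 exons and 345 codons. Celf6-202 starts at 59589339 and has 344 codons. The codons of Celf6-204 equal the end of the Celf6-201 reading frame, so that the forms differ in protein by the amino-terminal 115 codons. Those 115 codons lie on 345 bases, joined over chr9:59578378-59578639 and chr9:59582276-59582358. Celf5-201 has a matching stretch of 228 coding bases, 76 codons, that Celf5-202 lacks. The last 228 bases of the Celf6 stretch (chr9:59578495-59578639 and chr9:59582276-59582358) and the Celf5 stretch (minus strand of chr10:81482461-81482605 and chr10:81476869-81476951) are shown because they are what the shorter forms lose. Both were read from the GRCm38 genome, and capitals mark the bases that differ between them.
Celf6-201: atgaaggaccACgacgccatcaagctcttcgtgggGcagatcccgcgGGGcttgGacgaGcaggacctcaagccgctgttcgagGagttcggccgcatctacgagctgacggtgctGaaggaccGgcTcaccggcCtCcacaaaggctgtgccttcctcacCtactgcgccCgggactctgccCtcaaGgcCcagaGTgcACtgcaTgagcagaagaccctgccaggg
Celf5-201: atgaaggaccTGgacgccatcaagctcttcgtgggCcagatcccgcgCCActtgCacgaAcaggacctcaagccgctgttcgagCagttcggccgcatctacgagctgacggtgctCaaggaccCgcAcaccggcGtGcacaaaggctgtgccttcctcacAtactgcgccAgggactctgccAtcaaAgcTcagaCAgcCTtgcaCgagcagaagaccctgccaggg
Aligned without gaps, they were identical at 204 of 228 positions (89.5%) and differed at 24. In CELF proteins this amino-terminal region holds much of the first RNA recognition motif.

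Celf6-204 was present in all control libraries and near 0 in all knockdown libraries. It was at 2.57, 2.75 and 1.88 FPKM in controls against 0.0564, 0.0411 and 0.0154 FPKM in knockdowns. The log2 difference was -1.70 (standard error 0.21, 95% interval -2.23 to -1.18, limma unadjusted p = 0.00025), and its adjusted p of 0.106 over all 18476 transcripts missed the threshold. Its mean of 1.22 FPKM passed the filter through the controls alone; with no filter the limma adjusted p was 0.0602. The exact permutation p was 0.1, the smallest possible. Celf6-201 moved the other way, from 1.32, 1.17 and 0.742 FPKM in controls to 2.97, 2.07 and 2.81 FPKM in knockdowns, again without overlap (log2 difference 0.80, standard error 0.21, limma unadjusted p = 0.00945, adjusted p = 0.950). Celf6-202 was at 1.03, 0 and 0.750 FPKM in controls against 2.33, 2.20 and 0.851 FPKM in knockdowns, and its highest control exceeded its lowest knockdown library.

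As a share of the 3 transcripts, Celf6-204 held 52.2%, 70.2% and 55.8% in controls and 1.05%, 0.954% and 0.418% in knockdowns. Celf6-201 held 26.8%, 29.8% and 22.0% in controls and 55.4%, 48.0% and 76.4% in knockdowns. The usage of Celf6 differed between groups (diffSplice adjusted p = 0.00077, rank 18 of 4091 genes). An unadjusted usage p under 0.05 was found in 11.1% of these genes. On simulated data with no change, diffSplice still called a few genes in most draws, so its adjusted p-values may be too small. The simulation shuffled each transcript separately and lost the ties between transcripts of the same gene. It therefore cannot give the rate of false calls in these data. Usage of Celf6-204 fell by 2.52 on the log2 scale against the other transcripts of the gene (diffSplice adjusted p = 0.000535). Since Celf6-204 entered the test through its control values, the gene was also tested with no filter, where the usage adjusted p was 0.00067. Usage differences of Celf6-201 and Celf6-202 were 1.24 and 1.28 and missed the threshold (diffSplice adjusted p = 0.125 and 0.110). The Celf6 call was lost without control 1 (adjusted p = 0.914) and without control 2 (adjusted p = 0.828), where Celf6-204 fell under the 1 FPKM mean and only the other 2 transcripts were compared. With the filter kept over all 6 libraries, a setting chosen after seeing the data that keeps Celf6-204 through its control values, the adjusted p over the 6 omissions ran from 0.00138 to 0.0092.

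Much of the Celf6 sequence is shared between its transcripts, which limits how fragments can be told apart. Celf6-201 and Celf6-204 share 2378 bases, with 387 found only in the first and 232 only in the second. Celf6-202 lies wholly within Celf6-204, which has 1027 further bases. Most of these further bases lie at the 3′ end, where the last exon ends at 59606318 in Celf6-202 and at 59607291 in Celf6-204. A smaller difference between the downstream-start forms is an exon junction, shown for Celf6-204 and Celf6-202, with the 3 bases that Celf6-202 lacks in capitals. The parts come from chr9:59603578-59603597, followed by chr9:59604130-59604152 in Celf6-204 and by chr9:59604133-59604152 in Celf6-202.
Celf6-204 junction: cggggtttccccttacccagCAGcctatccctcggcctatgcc
Celf6-202 junction: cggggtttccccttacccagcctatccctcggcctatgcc
Taken as a sum chosen after the values were seen, the forms with a downstream start, Celf6-202 and Celf6-204, were at 3.60, 2.75 and 2.63 FPKM in controls against 2.39, 2.24 and 0.867 FPKM in knockdowns. This sum did not overlap between groups (two-sided exact permutation p = 0.1). Its share of Celf6 was 73.8% ± 3.96 in controls and 40.1% ± 14.8 in knockdowns (SD, n = 3 each). The annotated transcript Celf6-203, which shares upstream exons with Celf6-201, was not analysed here.

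The 2 starts lie in unlike sequence. Over the 250 bases before it, GC content was 75.6% at the Celf6-201 start and 46.4% at the Celf6-204 start, beside a median of 52.4% over 32817 RefSeq promoter windows (GRCm38.p6). The window before the Celf6-201 start overlaps exons of other annotated forms, Celf6-203 among them. Windows of the same length were searched on both strands for 4 motifs. The letters TGACGTCA, the cAMP response element, occurred once before the Celf6-201 start and are held by 1.55% of all windows. GGGCGG, the GC box, occurred 5 times there and is held by 32.7% of windows. TATAAA (12.4% of windows) and the E-box CACGTG (6.02%) were not found there. None of the 4 was found in the 250 bases before the Celf6-204 start, chr9:59589038-59589287, shown because Celf6-204 was near 0 in every knockdown library. The same bases lie before Celf6-202, which begins in the same first exon at 59589339. Celf6-202 was not near 0 in knockdowns, at 2.33, 2.20 and 0.851 FPKM. All its bases lie within Celf6-204, so the division of fragments between them is an estimate, and activity of the start was not tested.
Before Celf6-204: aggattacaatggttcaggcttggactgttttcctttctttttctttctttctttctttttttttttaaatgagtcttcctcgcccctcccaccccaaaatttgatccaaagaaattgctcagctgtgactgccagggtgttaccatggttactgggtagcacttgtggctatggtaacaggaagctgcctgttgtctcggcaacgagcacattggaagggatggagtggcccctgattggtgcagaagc
These matches are descriptions of letters and say nothing of binding.

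**Figure D3:**
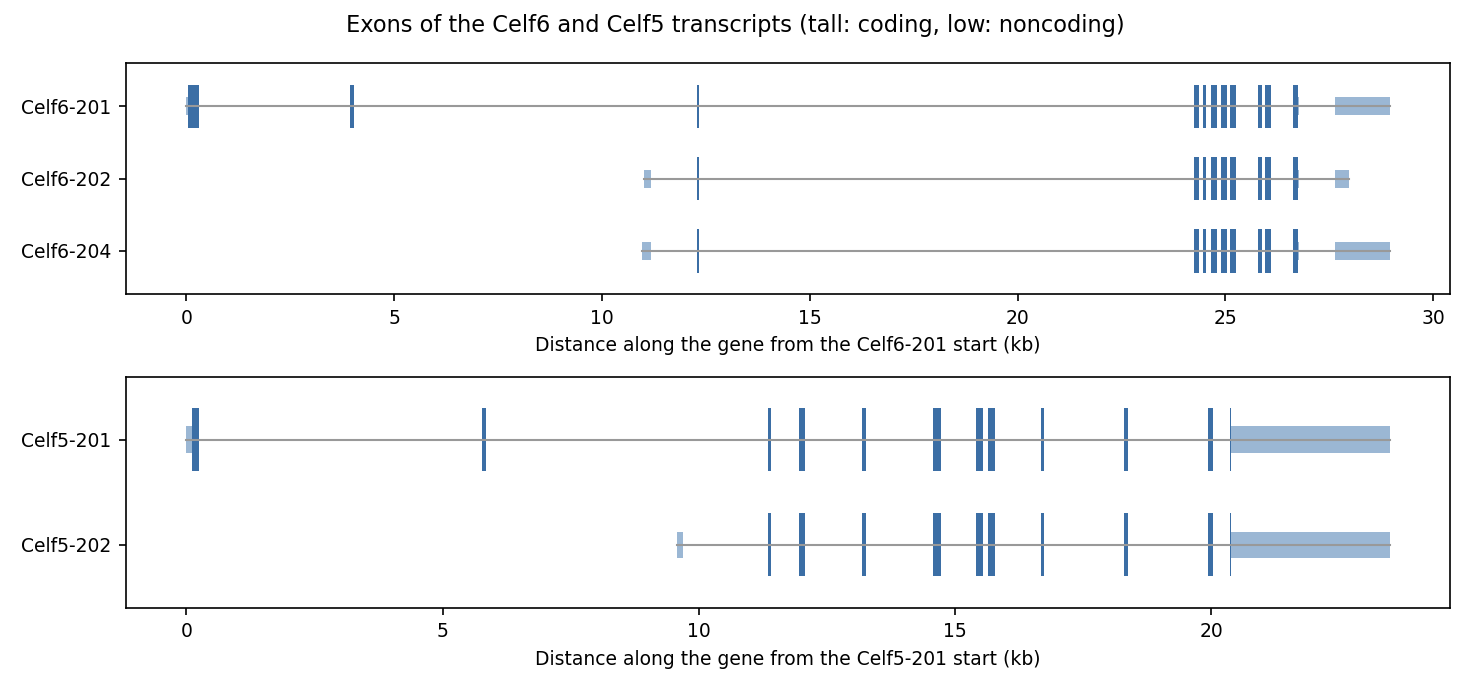
Exons of the listed Celf6 and Celf5 transcripts by distance (kb) from the start of Celf6-201 and of Celf5-201, with tall boxes for coding and low boxes for noncoding bases. Celf6-204 and Celf6-202 begin about 11 kb downstream, and Celf5-202 begins 9582 bases downstream.

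In Celf5, the estimated levels of transcripts with different first exons were exchanged, but within the knockdown group. Whether the use of the starts themselves changed was not tested. The gene (ENSMUSG00000034818.16, chr10:81459227-81482709, minus strand) has Celf5-201, of 395 codons, and Celf5-202, of 319 codons, whose start lies 9582 bases downstream. Celf5-201 was at 61.7, 53.2 and 51.1 FPKM in controls against 56.3, 2.12 and 2.56 FPKM in knockdowns. Celf5-202 was at 0, 0.0135 and 0 FPKM in controls against 0, 62.3 and 56.9 FPKM in knockdowns. Knockdown 1 resembled the controls, and knockdowns 2 and 3 held 93.9% and 92.5% of Celf5 as Celf5-202. The sum of both forms was 61.7, 53.2 and 51.1 FPKM in controls against 56.3, 64.5 and 59.4 FPKM in knockdowns, so the exchange left the total within the range of the controls or just above it.

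The log2 differences were -2.71 for Celf5-201 and 3.94 for Celf5-202 (limma adjusted p = 0.950 for both), and Celf5 usage was not called (diffSplice adjusted p = 0.280). Celf5-202 passed the filter through knockdowns 2 and 3 alone. Knockdown 1 decided the outcome. It is the library that goes against the others of its group, so the values without it are a description and no support. They were -4.07 and 5.91 (limma adjusted p = 0.00715 and 0.00363), and a diffSplice usage adjusted p of 3.34e-08. The 2 forms share 4058 bases, and only 333 and 108 bases are found in one and not the other. Celf5-203, whose first exon lies within that of Celf5-201, stayed between 0.754 and 1.18 FPKM in all 6 libraries. Celf5-208 stayed between 0.515 and 1.18 FPKM.

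**Figure D4:**
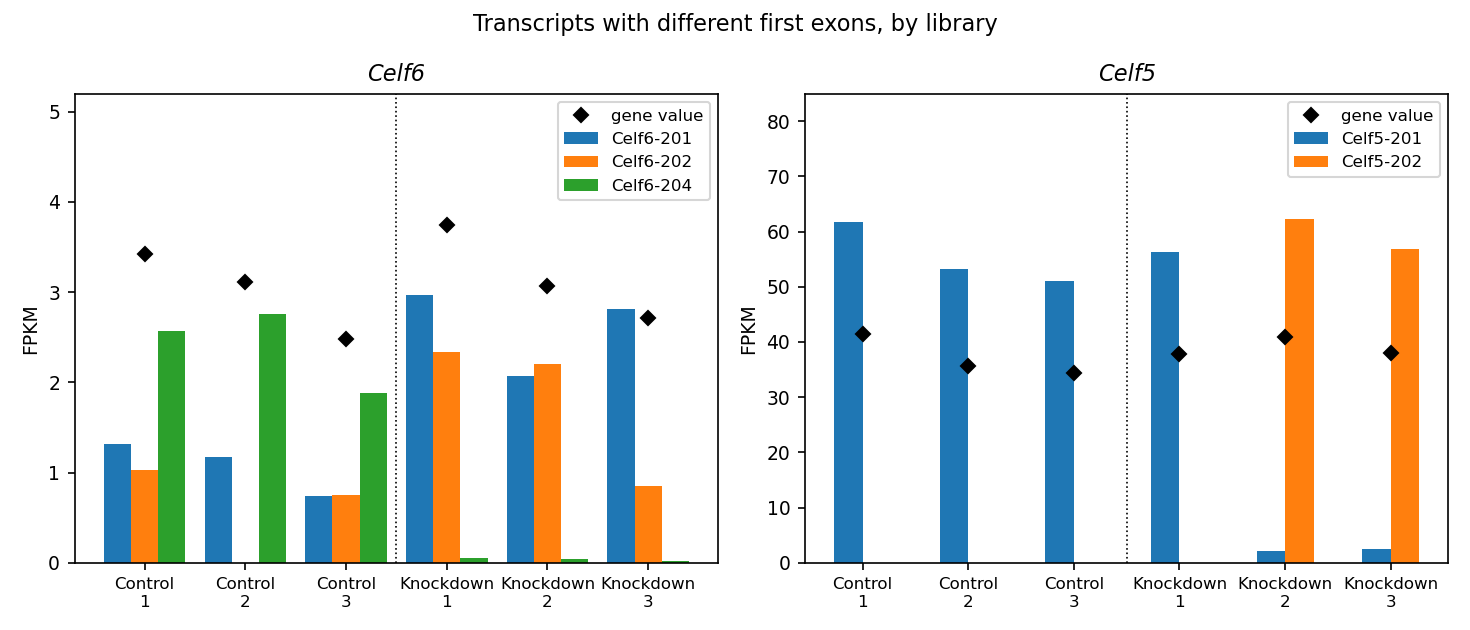
Level (FPKM) of the listed Celf6 transcripts and of the main Celf5 transcripts in each control and knockdown library. Celf6-204 separates the groups, from 1.88 FPKM or more in controls to 0.0564 FPKM or less in knockdowns, whereas Celf5-201 is low only in knockdowns 2 and 3.

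Celf3 (ENSMUSG00000028137.9, chr3:94478295-94492198, plus strand) kept the same leading form in all 6 libraries. Celf3-215, of 494 codons, was at 13.0, 13.0 and 10.9 FPKM in controls against 13.8, 11.3 and 14.5 FPKM in knockdowns. Celf3-208, of 389 codons, was at 1.87, 2.96 and 1.41 FPKM in controls against 0.0603, 0.0402 and 0.839 FPKM in knockdowns, without overlap (log2 difference -1.25, standard error 0.34, limma unadjusted p = 0.011, adjusted p = 0.950). Celf3-204, of 370 codons, was at 3.87, 2.74 and 2.44 FPKM in controls against 2.29, 1.76 and 2.20 FPKM in knockdowns, also without overlap. Celf3-214, a short model of 366 bases, was at 2.02, 0.144 and 0.0541 FPKM in controls against 1.61, 1.30 and 3.15 FPKM in knockdowns, so that control 1 lay within the knockdown range. Celf3-213 was at 0 in knockdown 1 and between 1.06 and 1.77 FPKM elsewhere, and Celf3-201 lay between 1.54 and 2.53 FPKM throughout. Celf3 usage was not called (diffSplice adjusted p = 0.138), but passed without control 1 (adjusted p = 0.016). Without any other single library the diffSplice adjusted p was 0.158 to 0.646. The listed Celf3 transcripts accounted for 44.7% to 52.4% of the length-weighted gene value, so a large part of the gene's signal lies outside them.

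Celf4 (ENSMUSG00000024268.16, chr18:25477632-25754157, minus strand) had the most stable makeup. Celf4-202, of 504 codons, was at 122, 115 and 99.6 FPKM in controls against 102, 96.0 and 93.5 FPKM in knockdowns. Its share of the 5 listed transcripts stayed between 82.0% and 84.6%. The other members were far lower: Celf4-207 at 6.995 to 11.4 FPKM, Celf4-201 at 5.68 to 9.10, Celf4-206 at 3.24 to 4.58 and Celf4-203 at 1.21 to 1.92. Celf4 usage was not called (diffSplice adjusted p = 0.782).

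Celf1 (ENSMUSG00000005506.16, chr2:90940382-91019497, plus strand) had its deviation in 1 control library. Celf1-208, of 513 codons, was at 11.0, 0 and 5.44 FPKM in controls against 5.64, 11.5 and 8.73 FPKM in knockdowns. In control 2, where it was listed at 0, Celf1-206, of 486 codons, was at 3.53 FPKM and Celf1-203 at 3.14 FPKM. Celf1-203 was at 0.390 to 0.539 FPKM in the other 5 libraries. Forms with the extended last exon (Celf1-203, Celf1-208 and Celf1-214) summed to 11.5, 3.14 and 10.005 FPKM in controls against 10.1, 11.9 and 9.27 FPKM in knockdowns. Forms with the spliced last exon (Celf1-201 and Celf1-206) summed to 3.59, 3.53 and 3.05 FPKM in controls against 2.87, 2.73 and 3.85 FPKM in knockdowns. Grouped by reading frame, the forms of 513 codons (Celf1-201 and Celf1-208) summed to 12.6, 0.00511 and 6.90 FPKM in controls against 7.10, 11.5 and 8.73 FPKM in knockdowns. The forms of 486 codons (Celf1-203, Celf1-206 and Celf1-214) summed to 2.44, 6.67 and 6.15 FPKM against 5.86, 3.12 and 4.39 FPKM. In control 2 the forms of 513 codons were near 0, and those of 486 codons were at their highest. These sums were chosen after the values were seen. Celf1-214 reached 4.16 FPKM (control 3) and 4.01 FPKM (knockdown 1) but was at or near 0 in the rest, and Celf1 usage was not called (diffSplice adjusted p = 0.868).

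Celf2 (ENSMUSG00000002107.18, chr2:6539694-7509563, minus strand) exchanged its leading form between libraries of the same group. Celf2-202, of 484 codons, was at 22.2, 2.57 and 0.156 FPKM in controls against 31.4, 0.120 and 0.208 FPKM in knockdowns, and led in control 1 and knockdown 1. Celf2-204, of 526 codons, was at 1.61, 17.8 and 2.13 FPKM in controls against 0.229, 21.6 and 18.3 FPKM in knockdowns, and led in control 2 and knockdowns 2 and 3. Celf2-214, of 478 codons, led in control 3 alone, at 16.9 FPKM against 0.191 to 3.21 FPKM elsewhere. These exchanges did not follow the groups. Celf2-226, of 472 codons, was at 15.5, 15.5 and 11.8 FPKM in controls against 0.335, 15.1 and 14.1 FPKM in knockdowns, so that it was low in knockdown 1 alone. Celf2-225 reached 11.4 FPKM (control 1) and 8.37 FPKM (knockdown 2) and was at most 0.464 FPKM in the others. Celf2-207 and Celf2-209, which are short models, and the longer Celf2-211 lay between 0.306 and 3.12 FPKM. Celf2 usage was not called (diffSplice adjusted p = 0.974). Celf2-204 and Celf2-214 share 8594 bases, with 144 and 262 bases of their own.

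**Figure D5:**
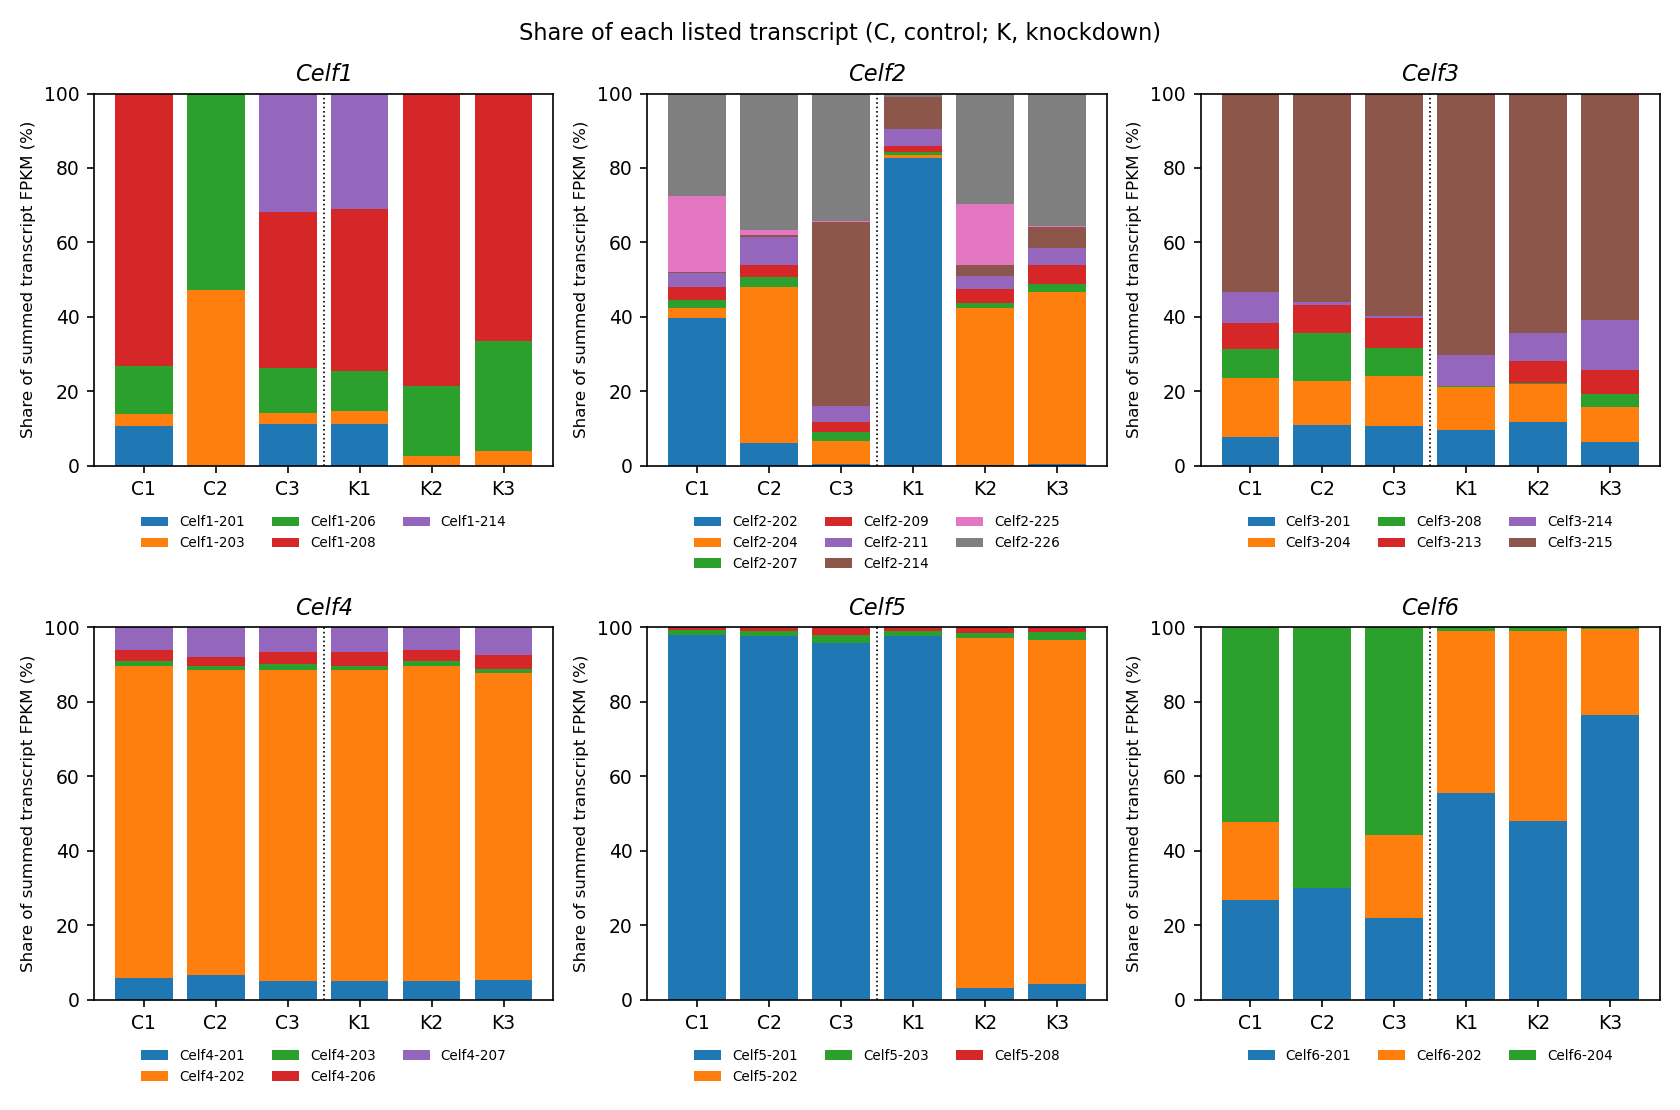
Share (%) of each listed transcript in the summed transcript FPKM of its gene, for the 6 Celf genes in each control and knockdown library. The leading Celf4 form holds 82.0% to 84.6% everywhere, Celf6-204 holds 1.05% or less in the knockdown libraries, and the leading Celf2 form changes from library to library.

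The leading transcript changed between libraries in 4 of 6 members, all but Celf3 and Celf4. Such changes were common: among 2754 genes with at least 3 listed transcripts, as every member has, the leading one differed between libraries in 55.3%. Among the 26 tested and 5 untested Celf transcripts, 6 were listed at 0 in at least 1 library.

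The muscleblind proteins, which act on many of the same exons as CELF proteins, were measured through 2 of 3 genes, Mbnl3 not being listed. Mbnl1 was at 1.53, 2.91 and 1.42 FPKM in controls against 1.57, 0.933 and 0.935 FPKM in knockdowns (log2 difference -0.44, limma unadjusted p = 0.0805, adjusted p = 0.948). Mbnl2 had a log2 difference of 0.15 (limma adjusted p = 0.948). The groups overlapped for both genes.

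Kinases and partners known to act with CELF1 in mammalian cells were all 8 tested and 0 were called, with 5 positive and 3 negative differences and a median of 0.05. The smallest unadjusted p belonged to Dmpk, the kinase gene whose repeat expansion causes myotonic dystrophy in people, at 4.41 ± 0.681 FPKM in controls against 5.98 ± 1.52 FPKM in knockdowns (SD, n = 3 each; log2 difference 0.35, limma unadjusted p = 0.0993, adjusted p = 0.948). Cdk4, a cell cycle kinase, had a log2 difference of -0.15 and Gsk3b, a kinase that acts on the CELF1 partner cyclin D3, one of 0.14 (limma adjusted p = 0.948 for both).

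Among 17 genes whose RNA is known as a target of CELF proteins, 16 were tested and 0 were called; Clcn1 was too low. Differences were positive in 11 and negative in 5, with a median of 0.17 beside 0.02 over all genes. In 3 the limma unadjusted p was under 0.05, against 3.57% of genes. The groups did not overlap for Insr, Mtmr1, Mapt and Ocln (knockdown higher) and Mef2a (knockdown lower), beside 7.92% of tested genes. Mapt was separate by a narrow margin, at 72.0, 60.1 and 18.1 FPKM in controls against 78.6, 72.8 and 72.1 FPKM in knockdowns. These counts are a description, since the list was chosen with earlier results known. Insr, the insulin receptor gene, whose exon choice CELF1 governs, was at 0.800, 0.629 and 0.912 FPKM in controls against 4.35, 4.24 and 0.936 FPKM in knockdowns. Its groups were separate by a narrow margin, set by knockdown 3, and its mean passed the filter through knockdowns 1 and 2 (log2 difference 1.09, limma unadjusted p = 0.0227, adjusted p = 0.948). Mtmr1, a lipid phosphatase gene whose exon choice is altered in people with myotonic dystrophy, was at 7.29, 6.44 and 6.40 FPKM in controls against 8.18, 9.48 and 7.72 FPKM in knockdowns (log2 difference 0.29, limma unadjusted p = 0.028, adjusted p = 0.948). Scn8a, a sodium channel gene, was at 17.6, 7.19 and 6.89 FPKM in controls against 16.9, 21.5 and 15.3 FPKM in knockdowns, with overlap through control 1 (log2 difference 0.81, limma unadjusted p = 0.0419, adjusted p = 0.948). Usage was testable in 8 of the targets and called in 0, with diffSplice adjusted p-values of 0.307 for Grin1 and 0.320 for Mapt.

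Over the 6 libraries, the tested genes whose pattern was most like that of each member by Pearson correlation of log2(FPKM + 1) are given as a description of libraries that share depth and dissection. They were Uso1 and Naa25 for Celf1 (r = 0.998 and 0.997), Exoc4 and Neto1 for Celf2 (0.991 and 0.989) and Fam171a1 and Krt77 for Celf3 (0.997 and 0.991). For Celf4 they were Ankrd6 and Zfp60 (0.983 and 0.982), for Celf5 Zbtb1 and Krit1 (0.991 and 0.982) and for Celf6 2010315B03Rik and Ripor2 (0.991 and 0.985). With 6 points, high values are common: 88 genes exceeded 0.95 for Celf1 and 10 for Celf5. The Celf1 pattern was again that of 1 library, since Uso1 stood at 9.89 FPKM in control 2 and 11.6 to 12.1 FPKM elsewhere.

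The libraries were comparable in total, with FPKM sums over listed genes of 256047 to 285833 and a mean Spearman correlation with the other libraries, across genes, of 0.957 to 0.971. Markers of the cortex were present, with Slc17a7 of excitatory neurons at 86.5 to 259 FPKM. Striatal neuron markers were present too, with sums of 272, 367 and 141 FPKM in controls against 186, 202 and 221 FPKM in knockdowns, so the controls were spread more widely than the knockdowns. The summed levels of 7 marker lists overlapped between groups. Of the 27 single markers, 2 were higher in all knockdown libraries and 0 lower, beside 7.92% of all tested genes without overlap in either direction. They were Cx3cr1 of microglia (2.90, 2.86 and 2.02 FPKM in controls, 8.82, 8.23 and 3.94 FPKM in knockdowns) and Gja1 of astrocytes (6.15, 8.002 and 7.74 against 11.0, 9.03 and 8.82 FPKM). In the other members of their lists the groups overlapped, with log2 differences of 0.05 for P2ry12, -0.06 for Csf1r and -0.09 for Tmem119 in microglia, and 0.15 for Aqp4, -0.22 for Aldoc and -0.0059 for Slc1a3 in astrocytes. All 4 oligodendrocyte markers had positive differences, with sums of 572 to 722 FPKM in controls against 672 to 918 FPKM in knockdowns. Excitatory marker sums were 279 to 488 FPKM in controls against 272 to 333 FPKM in knockdowns, and microglial sums 35.6 to 42.8 and 40.9 to 44.1 FPKM. The part of such differences in the Celf values was not tested.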

How the data were processed

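Total RNA of 6 libraries was profiled with a stranded kit, per the labels' protocols. The authors deposited FPKM values per gene and per transcript, of protein-coding features only, per the file headers. The submitters' processing notes name FastQC, cutadapt, HISAT2 and StringTie but no versions, and the genome build is not given in the sources used here. All 6 genes and 31 transcripts had the coordinates of GENCODE M21 (GRCm38), which supplied exons and sequence. Read depth is unknown, so no counting interval is given. Each table had 1 empty line, left out here.

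The logarithm log2(FPKM + 1) was fitted in R 4.3.3 by limma 3.58.1 with an intensity trend, keeping features that averaged 1 FPKM or more over 6 libraries, with Benjamini-Hochberg adjustment over all of them at 0.05. Usage was tested with diffSplice. The functions were tested on simulated data, in which diffSplice called a few genes in most draws where nothing had been changed. Each transcript was shuffled separately there, so ties between transcripts of the same gene were not kept. Two-sided exact permutation tests compared single values. The family and the gene lists were chosen with earlier results of these data known. Named were all Celf genes and transcripts, the 2 most alike genes per member and up to 3 genes per list by unadjusted p. Targets of CELF proteins whose groups did not overlap were named as well. Alternatives covered pseudocount, filter, scaling, variance trend, library weights, replicate number and each library left out.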

Additional observations from a re-analysis of the deposited data

How the results depend on the processing

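No Celf gene was called under any alternative run. Celf6 usage stayed called in the 6 alternatives with all libraries and all 3 of its transcripts (diffSplice adjusted p from 0.000429 to 0.0245). With a mean of at least 5 FPKM Celf6 was not tested, and 0 members were called. Without an intensity trend, 1 Celf transcript, Celf6-204, was called (limma adjusted p = 0.0263); over the alternatives run its adjusted p ranged to 0.804. The trend alternative was not run for usage, which has no such option. With 1 library left out, 0 to 2 members were called by usage and 0 to 2 transcripts by level; the 2 transcripts, Celf5-201 and Celf5-202, were called without knockdown 1, and without control 1 Celf3 was called in place of Celf6. By the sum of listed transcripts, Celf1 ranked 5, Celf2 ranked 3 and Celf3 ranked 4 in level.

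The labels state no pairing. Deviations of same-numbered libraries from their group means correlated at 0.184, -0.127 and -0.0708. With 3 libraries a group, such values cannot settle whether same-numbered libraries were handled together. With the replicate number as a block, 0 genes and 0 transcripts of the family were called, and Celf6 usage was called (diffSplice adjusted p = 0.0245). Control 2 correlated best with knockdown 3 (0.269).

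Small differences turned in sign. They became -0.028 for Celf2 by the sum of listed transcripts, 0.015 for Celf1-214 under a common sum, -0.012 for Celf2-209 under quantile normalization, and -0.013 for Celf2-214 and -0.019 for Celf4-206 under array weights. Leaving out 1 library moved the log2 difference of Celf1 from -0.029 to 0.50, Celf6 from -0.039 to 0.14, Celf1-206 from -0.12 to 0.38, Celf1-214 from -0.79 to 0.78, Celf2-202 from -1.98 to 0.79, Celf2-204 from -0.14 to 1.96, Celf2-209 from -0.12 to 0.32, Celf2-211 from -0.35 to 0.0084, Celf2-214 from -0.57 to 1.38, Celf2-225 from -1.34 to 0.80, Celf2-226 from -1.76 to 0.043 and Celf4-206 from -0.046 to 0.15. The cause was not tested.

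With 3 libraries a group and no known depth, low transcripts such as those of Celf6 rest on few fragments of unknown number.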
